A study of Mus musculus with 12 samples.

Results

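Mitochondrial ribosomal protein genes were examined in bone marrow-derived macrophages (BMDMs) exposed to a bromodomain inhibitor and to immune complexes. The genes were taken by symbol, as rows of the count table that begin with Mrpl or Mrps followed by a number and that held at least 10 counts over all libraries. This gave 77 of 24421 symbols. All 77 passed the filter on low counts, among 11468 genes tested. The cells came from wild-type C57BL/6 mice and were cultured with the growth factor M-CSF (100 ng/mL) until day 5, the medium being renewed on day 3. They were then treated for 4 hours with I-BET151 at 5.0 µM or with its solvent DMSO, labelled as 5%. I-BET151 (iBET) is a small molecule that keeps the bromodomains of BET proteins from binding acetylated histones. The study's methods state 5% DMSO for dosing mice and give no final share in culture, so the labelled 5% is uncertain. Drug or solvent was combined with ovalbumin alone (Ova) or with ovalbumin bound by IgG (immune complex, IC), which engages Fc gamma receptors. The labels describe drug and stimulus as simultaneous and the study's text puts the drug first, which leaves the order of addition unclear. The 4 groups (DMSO Ova, DMSO IC, iBET Ova, iBET IC) held 3 libraries each, 1 from each of the mice A, B and C.

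Mitochondria carry their own ribosome, which makes the hydrophobic core subunits of the respiratory chain that mitochondrial DNA encodes. Its RNA comes from the mitochondrial genome, whereas all of its proteins are encoded in the nucleus, made in the cytosol and imported. The large subunit (Mrpl genes, with Mrps18a and Mrps30 by the current assignment) holds the peptidyl transferase centre and the exit tunnel, and the small subunit (Mrps genes) binds and decodes the mRNA. Some of these proteins have a counterpart in bacterial ribosomes and others were added in the mitochondrial lineage. Stimulated macrophages are known to shift between respiration and glycolysis, which makes this machinery part of their metabolic equipment.

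The 77 genes lay on 17 chromosomes. Of them, 46 were placed in a list of proteins with a bacterial counterpart and 30 in a list of mitochondria-specific proteins. Mrps36, now regarded as a component of a matrix dehydrogenase, was in neither. Their principal transcripts were short, with a median of 1288 bases against 2960 bases over the genes tested. On GRCm38/mm10, 33 of the 77 (42.9%) had the start of a protein-coding gene on the other strand within 1000 bases of their own start, against 1912 of 10830 (17.7%) other protein-coding genes tested. Bodies of 35 overlapped an annotated gene on the opposite strand and those of 13 a gene on the same strand. The use of strand in counting was not stated, so the values of these genes are uncertain.

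The libraries held 7.55 M to 17.4 M counts. In mouse A's DMSO Ova library, the ribosomal precursor Rn45s took 77.4% of them and left 1.77 M on other genes, against 1.41% to 7.83% in the other libraries. Of 7 macrophage markers, Lyz2, Adgre1, Cd68, Csf1r and Itgam lay between 582 and 4361 CPM in every library (counts per 1 M reads: read counts scaled by TMM-adjusted library size). The others, Cd14 and Mertk, lay at 257 to 614 and 5.72 to 31.8 CPM. Those of T and B cells, erythroid cells, fibroblasts and dendritic cells summed to at most 2.05 CPM, and the 4 erythroid markers were at 0 throughout. Markers of neutrophil precursors summed to 7.70 to 50.4 CPM and were lowest in mouse A in each group. The summed macrophage markers were 6109 to 7487 CPM in the 6 DMSO libraries and 7051 to 8361 CPM in the 6 iBET libraries. Their part in the results was not tested. Within the family, mouse A was the highest of the 3 mice for 38 of the 77 genes in DMSO Ova, 48 in DMSO IC and 46 in iBET IC. In iBET Ova it was the highest for 15 and mouse B for 42. Mrps25, a small subunit protein picked as an example after its values were seen, had 99.1, 40.4 and 37.5 CPM in the DMSO Ova libraries of mice A, B and C and 84.7, 40.1 and 37.7 CPM in those of DMSO IC. Values without single libraries are given where a call or its size depended on one. In bulk RNA, fewer cells of a type and less RNA per cell cannot be told apart.

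Sequence ahead of the start site is shown for 5 of the 9 genes called with iBET in both stimulations, chosen after their values were seen, the first 3 of which rose and the last 2 of which fell. The stretches are from RefSeq promoter windows (GRCm38.p6) and are limited to bases before the RefSeq start that lie outside exons of principal transcripts. Capitals mark matches, on either strand, to the motifs CCGGAAG (ETS type), GCGCANGCG (NRF1 type), AAGATGGC (YY1 type), CACGTG (E-box) and GGGCGG (Sp1 type).
Mrps6, chr16:92058086-92058269, plus strand: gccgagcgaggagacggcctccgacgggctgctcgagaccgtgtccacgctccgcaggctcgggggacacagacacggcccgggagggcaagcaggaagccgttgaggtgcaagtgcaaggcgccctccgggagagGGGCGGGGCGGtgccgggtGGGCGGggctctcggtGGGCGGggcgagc
Mrpl49, chr19:6057786-6057843, minus strand: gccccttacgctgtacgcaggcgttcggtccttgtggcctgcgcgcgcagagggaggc
Mrpl10, chr11:97041408-97041559, plus strand: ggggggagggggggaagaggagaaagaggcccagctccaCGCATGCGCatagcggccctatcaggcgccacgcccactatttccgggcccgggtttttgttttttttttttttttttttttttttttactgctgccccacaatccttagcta
Mrpl51, chr6:125191950-125192164, plus strand: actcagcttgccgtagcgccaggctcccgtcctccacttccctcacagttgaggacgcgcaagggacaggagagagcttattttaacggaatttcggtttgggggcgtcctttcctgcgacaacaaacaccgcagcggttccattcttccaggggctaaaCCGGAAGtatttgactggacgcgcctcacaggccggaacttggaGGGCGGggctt
Mrps18b, chr17:35916441-35916565, minus strand: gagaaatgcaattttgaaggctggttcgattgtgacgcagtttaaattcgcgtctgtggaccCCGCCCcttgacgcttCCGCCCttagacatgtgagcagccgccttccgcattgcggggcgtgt
The stretch of Mrpl51 lies inside the gene body given below for the wider annotation, in an exon of a noncoding transcript of that gene, and that of Mrps18b in an exon of a noncoding transcript of Ppp1r10. The stretch of Mrps6 held 4 matches to the Sp1 type, of which the first 2 overlap, that of Mrpl10 1 of the NRF1 type, that of Mrpl51 1 each of the ETS and Sp1 types and that of Mrps18b 2 of the Sp1 type. That of Mrpl49 held 0. The whole windows, defined next, held more for 2 of these genes. That of Mrpl49 had 1 match of the YY1 type and 2 of the Sp1 type. That of Mrps18b had 1 each of the ETS and NRF1 types besides its 2 of the Sp1 type. Over windows of 300 bases (250 before and 50 after the start), 68 of the 77 genes were matched, with 74 windows. The ETS motif was in 33.8% of these windows, against 18.7% for the genes tested and 8.86% of all 32851 windows. For the NRF1 motif the shares were 21.6%, 13.9% and 6.25%, for the YY1 motif 16.2%, 4.76% and 2.75%, for the E-box 9.46%, 10.2% and 7.15%, and for the Sp1 motif 52.7%, 63.1% and 35.7%. Of the 16 genes of the family that fell with iBET, 13 had a window. The ETS motif was in 6 of these 13 windows, in 0 of 4 windows of those that rose and in 19 of 57 of the others. In the same order, the NRF1 motif was in 3, 1 and 12 windows and the YY1 motif in 0, 1 and 11. The E-box was in 0, 0 and 7 windows and the Sp1 motif in 5, 2 and 32. The differences between these groups were not tested. All motifs are matches to letters, not sites of binding.

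Levels within the family spanned a wide range. Per kilobase of principal transcript, the mean over all 12 libraries was highest for Mrpl52 (195 CPM per kb), Mrpl18 (82.2), Mrps21 (78.2) and Mrps22 (51.1). It was lowest for Mrps17 (2.04), Mrpl47 (2.19), Mrps35 (2.39) and Mrpl11 (2.89). The 4 lowest had annotated lengths of 3045 to 5061 bases and the 4 highest of 418 to 1219 bases, around a family median of 1288. The order thus depends in part on the length taken for each gene. Mrpl52 and Mrpl18 belong to the central protuberance of the large subunit, where it faces the small subunit, and Mrpl11 to its stalk base. The proteins are present in the ribosome in nearly equal numbers, and their transcripts, on this scale, were not. Mrpl52 was called in no comparison, with 81.3 ± 19.2 CPM in DMSO Ova, 84.0 ± 14.0 in iBET Ova, 79.0 ± 11.2 in DMSO IC and 82.2 ± 11.9 in iBET IC (SD, n = 3 libraries, as for all values below), and adjusted p from 0.833 to 0.995 in the 4 comparisons.

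Summed over the 77 genes, the family had 1916, 1758 and 1740 CPM in DMSO Ova of mice A, B and C and 1573, 1703 and 1693 CPM in iBET Ova. In DMSO IC it had 2107, 1604 and 1822 CPM, and in iBET IC 1685, 1415 and 1601 CPM. The iBET library was the lower one of its mouse in all 6 pairs. In Ova the groups did not overlap, and in IC they did, because mouse B's DMSO IC library lay below mouse A's iBET IC library. The 50 large subunit genes summed to 1212 ± 21.3 CPM in DMSO Ova and 1098 ± 44.2 CPM in iBET Ova, and the 26 of the small subunit to 581 ± 76.2 and 548 ± 34.7 CPM. In Ova the groups did not overlap for the large subunit. For the small subunit they did, and its sum was lower with iBET in mouse A (669 to 513 CPM) and higher in mice B (542 to 583 CPM) and C (533 to 548 CPM). In IC the sums were 1228 ± 119 and 1053 ± 89.99 CPM for the large subunit and 603 ± 135 and 505 ± 53.9 CPM for the small one, and the groups of both overlapped.

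**Figure D1:**
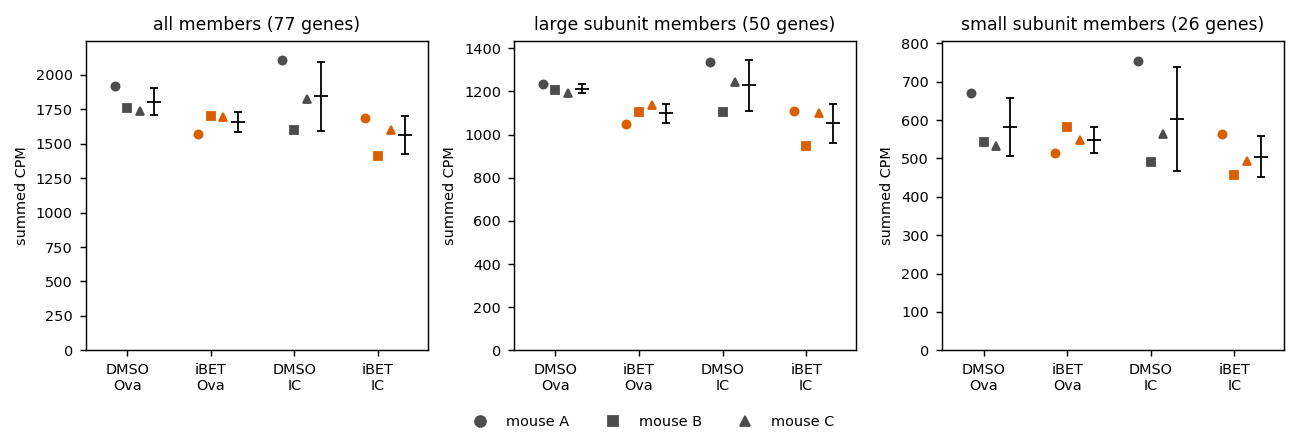
Summed CPM of the 77 genes, of the 50 large subunit genes and of the 26 small subunit genes in each library (points, shaped by mouse, grey for DMSO and orange for iBET), with the mean and SD of the 3 libraries of a group at the right of its points. The sum of all 77 was lower with iBET in every mouse and stimulation. In Ova it went from 1916 to 1573 CPM in mouse A, whose DMSO library has the high Rn45s share. In mice B and C it went from 1758 to 1703 CPM and from 1740 to 1693 CPM.

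Setting IC against Ova in DMSO asked whether Fc gamma receptor engagement moves these transcripts within 4 hours. By edgeR's quasi-likelihood test with Benjamini-Hochberg adjustment, 0 of the 77 were called higher and 0 lower, where 0.732% of all genes tested were called higher and 0.488% lower. The median log2 fold change was 0.07 over the family and -0.01 over all genes. An unadjusted p under 0.05 was found for 3 genes, Mrpl51, Mrps2 and Mrps18b, all on the side of IC. Over all 11468 genes tested it was found for 1341. Mrpl51, a mitochondria-specific protein of the large subunit, had 15.4, 17.0 and 20.8 CPM in DMSO Ova and 28.3, 25.5 and 23.7 CPM in DMSO IC (log2 fold change 0.52, SE 0.14, adjusted p of 0.104). The groups did not overlap. Mrps2, of the small subunit, was at 28.0 ± 5.2 and 37.4 ± 3.13 CPM (log2 fold change 0.38 ± 0.13 SE, adjusted p of 0.235). Mrps18b was at 18.9 ± 3.98 and 25 ± 2.59 CPM (log2 fold change 0.36 ± 0.16 SE, adjusted p of 0.424). DESeq2 also called 0 genes of the family in this comparison, and so did the fit with mouse as a block. With 1 surrogate variable Mrpl51 was called (adjusted p of 0.0493).

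In iBET, the same comparison called 0 of the 77 higher and 0 lower, where 0.314% and 0.0349% of all genes tested were called. An unadjusted p under 0.05 was found for 1 of the 77 (Mrps18b) and for 860 of all 11468 genes tested. The median was -0.07 over the family and -0.01 over all genes. Mrps18b was at 12.2 ± 1.90 CPM in iBET Ova and 16.6 ± 0.842 CPM in iBET IC (log2 fold change 0.44 ± 0.16 SE, adjusted p of 0.529), higher with IC in 3 of 3 mice in each arm. This count depended on mouse A. Without it, 3 genes were called lower with IC, namely Mrpl42 (-0.79, adjusted p of 0.0217), Mrps15 (-0.76, adjusted p of 0.0315) and Mrps25 (-0.50, adjusted p of 0.0378), all named because that fit called them, while the genes called in the whole table rose to 305. When the mouse block was added to that fit, the family had 9 genes called lower and 1 higher (Mrps18b), among 1264 in the whole table. DESeq2 with all mice called 0, as did the mouse block with all mice.

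Setting iBET against DMSO in Ova asked what BET inhibition does to these transcripts without the immune complex. Of the 77 genes, 3 rose (3.90%) and 6 fell (7.79%), where 17.1% of all genes tested were called higher and 14.2% lower, so both shares were below the background. The median log2 fold change was -0.12 over the family and 0.02 over all genes, and 51 of the 77 had a negative value. In IC, 4 genes rose (5.19%) and 16 fell (20.8%), against 19.0% and 15.8% of all genes tested. There the median was -0.29 over the family and -0.00 over all genes, and 57 of the 77 were negative. All 9 genes called in Ova were also called in IC. The 2 comparisons share no library, but they share the 3 mice and the fit, so they are not independent. The share of all genes called in Ova that were also called in IC is not given here. In both comparisons, each called gene of the family had 1 direction in 3 of 3 mice. That was so for 98.5% of all genes called in Ova and 99.8% of those called in IC. Nor did the groups of any called gene of the family overlap. Groups did not overlap for 96.6% of all genes called in Ova and 98.3% of those called in IC. The other 57 genes were called in neither.

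**Figure D2:**
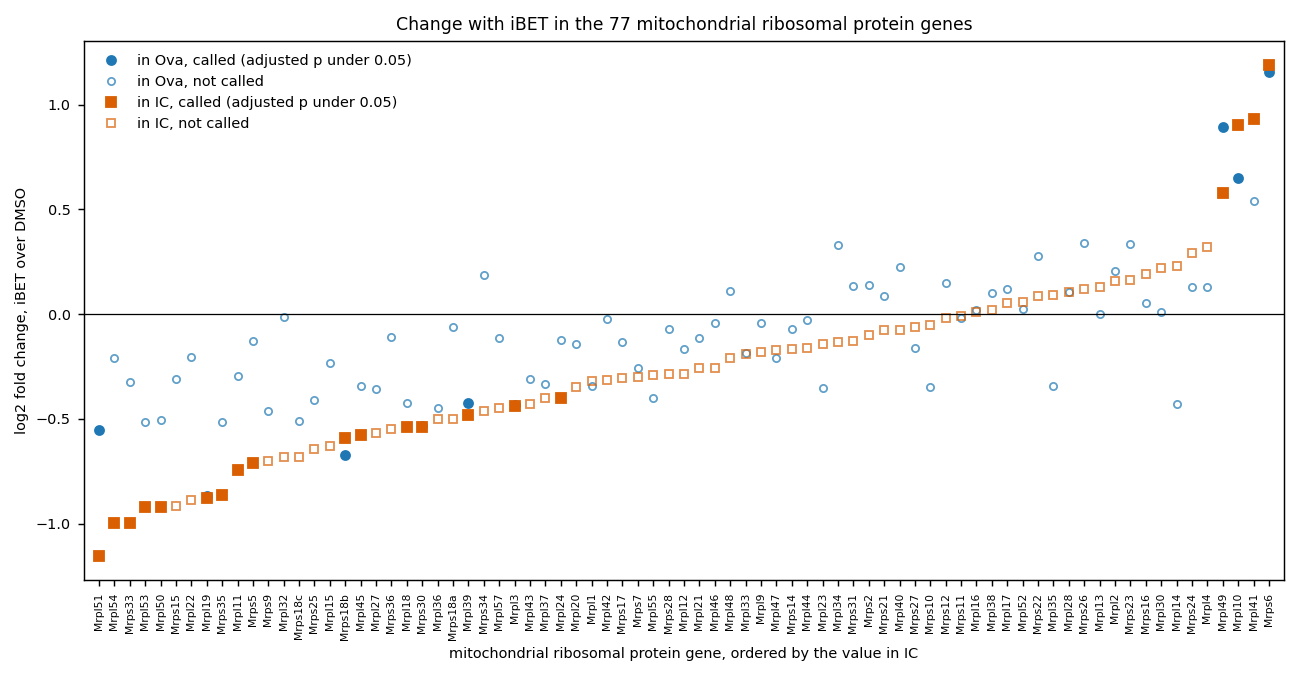
Log2 fold change of iBET over DMSO for each of the 77 genes in Ova (blue circles) and in IC (orange squares), ordered by the value in IC, with filled marks for genes called at an adjusted p under 0.05 and open marks for the rest. Most values in IC lie below 0, from -1.15 in Mrpl51 upwards, and 4 genes at the right (Mrpl49, Mrpl10, Mrpl41 and Mrps6) stand above 0.5, while the filled circles of Mrpl19, Mrps30 and Mrpl3 lie behind their squares.

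Among the genes that rose, Mrps6 had the largest change. It encodes a small subunit protein of the platform with a bacterial counterpart (chromosome 16, 92058270 to 92112227, plus strand). In DMSO Ova it had 10.8, 5.98 and 5.89 CPM in mice A, B and C, and in iBET Ova 15.7, 16.4 and 13.5 CPM. In IC the values were 7.15, 5.72 and 5.91 CPM with DMSO and 13.4, 16.9 and 12.7 CPM with iBET. All 6 iBET libraries thus lay above all 6 DMSO libraries. The log2 fold change was 1.16 in Ova (SE 0.22, adjusted p of 0.00166) and 1.19 in IC (SE 0.21, adjusted p of 0.000851). Slc5a3, a gene on the same strand that overlaps Mrps6 and whose RefSeq start is close to that of Mrps6, also rose, by 0.68 in Ova (SE 0.21, adjusted p of 0.0289) and 0.68 in IC (SE 0.20, adjusted p of 0.0206). Both genes could share reads, so the level of Mrps6 is uncertain. Both calls of Mrps6 were lost without mouse B (adjusted p of 0.0857 in Ova and 0.0505 in IC).

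Mrpl49, a mitochondria-specific large subunit protein (chromosome 19, 6053622 to 6057785, minus strand), had 14.9, 15.1 and 16.7 CPM in DMSO Ova and 31.9, 29.2 and 26.2 CPM in iBET Ova. In IC it had 17.9, 19.6 and 18.5 CPM with DMSO and 29.1, 28.6 and 25.6 CPM with iBET. The lowest iBET library was above the highest DMSO library in both. The rise was 0.89 in Ova (SE 0.12, adjusted p of 0.000162) and 0.58 in IC (SE 0.12, adjusted p of 0.00213). Its body overlaps Syvn1 on the opposite strand, an endoplasmic reticulum ubiquitin ligase, whose values were 0.67 in Ova (adjusted p of 0.0562) and 0.88 in IC (adjusted p of 0.0146). Fau, whose start is 59 bases away on the other strand, was at 0.28 (adjusted p of 0.250) and -0.05 (adjusted p of 0.839). The Mrpl49 call in IC was lost without mouse B (adjusted p of 0.0642).

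Mrpl10, which anchors the stalk that recruits translation factors (chromosome 11, 97041560 to 97049213, plus strand), had 13.9, 20.2 and 22.7 CPM in DMSO Ova and 30.6, 31.2 and 30.7 CPM in iBET Ova. In IC it went from 12.5, 20.5 and 21.7 CPM to 32.8, 30.1 and 39.3 CPM. The changes were 0.65 in Ova (SE 0.21, adjusted p of 0.0314) and 0.90 in IC (SE 0.20, adjusted p of 0.00443). Mouse A had the lowest DMSO value in both, and without its DMSO Ova library the change in Ova was 0.47 and the call was lost (adjusted p of 0.116). It was also lost without mouse B's DMSO Ova library or any 1 of the iBET Ova libraries. Without mouse B neither Mrpl10 call was kept (adjusted p of 0.197 in Ova and 0.0511 in IC), and without mouse C that in Ova was lost (0.0695). Mrpl41, a mitochondria-specific large subunit protein (chromosome 2, 24974117 to 24975098, minus strand), had 9.51, 9.35 and 13.4 CPM in DMSO IC and 20.9, 18.1 and 22.7 CPM in iBET IC (log2 fold change 0.93 ± 0.23 SE, adjusted p of 0.00734). In Ova the groups overlapped, at 9.25, 17.6 and 11.3 CPM and 21.6, 15.2 and 21.1 CPM, and the value was 0.54 (SE 0.23, adjusted p of 0.0965, 2 of 3 mice).

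**Figure D3:**
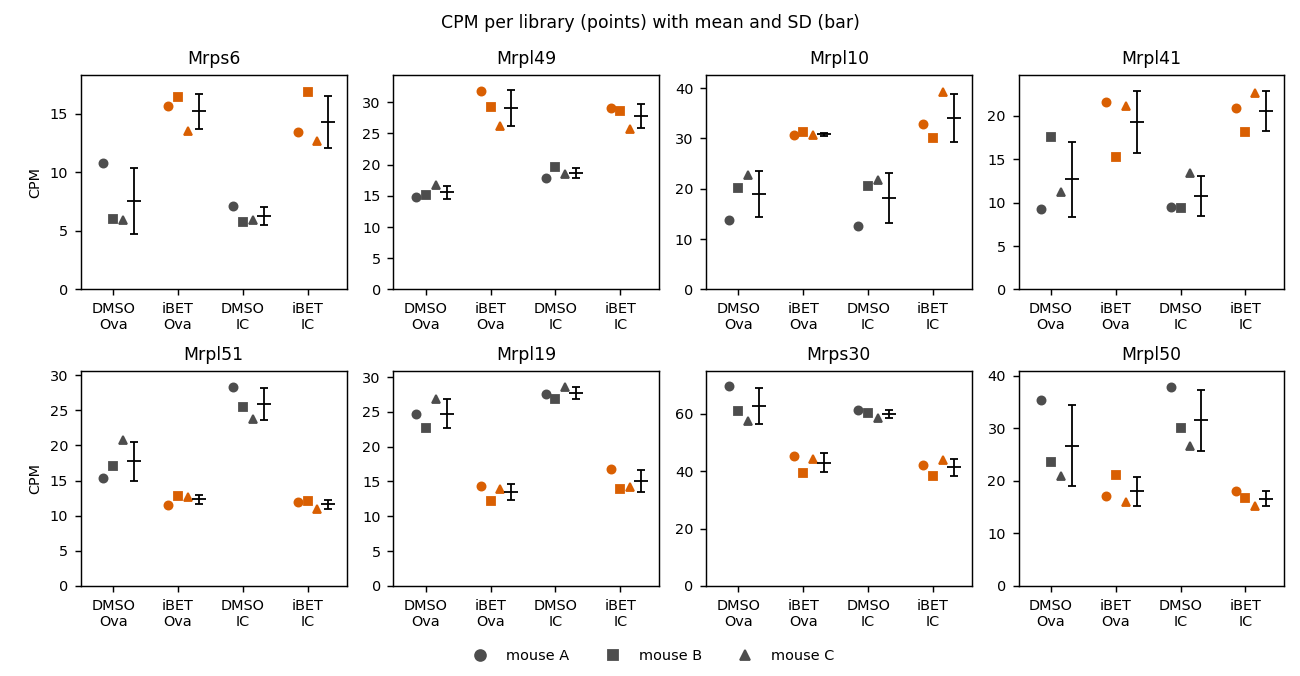
CPM of 8 genes in each library (points, shaped by mouse, grey for DMSO and orange for iBET), with the mean and SD of the 3 libraries of a group at the right of its points. In the upper row, which holds the 4 genes that rose in IC, the iBET points lie above the DMSO points except for Mrpl41 in Ova, and in the lower row, with 4 of the genes that fell in IC, they lie below them except for Mrpl50 in Ova, where iBET reached 21.2 CPM and the lowest DMSO library had 20.9 CPM.

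Of the genes that fell, Mrpl51 had the largest change in IC (chromosome 6, 125191801 to 125196269, plus strand). Its iBET libraries held 11.6, 12.8 and 12.6 CPM in Ova and 11.9, 12.0 and 10.9 CPM in IC, a narrow range below all DMSO libraries, whose values are given above. The log2 fold change was -0.55 in Ova (SE 0.14, adjusted p of 0.00989) and -1.15 in IC (SE 0.14, adjusted p of 5.21e-05). The start of this gene body lies 100 bases from that of Ncapd2, a condensin subunit, at -0.55 (adjusted p of 0.501) and -0.21 (adjusted p of 0.805). The RefSeq start used for the sequence above lies further inside the gene body. The call of Mrpl51 in Ova was lost without mouse C's DMSO Ova library (-0.41, adjusted p of 0.0644), and also without mouse B or C (adjusted p of 0.109 and 0.136). That in IC held without each library and each mouse.

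Mrpl19, a large subunit protein with a bacterial counterpart at the face that meets the small subunit (chromosome 6, 81957851 to 81965958, minus strand), had the largest fall in Ova. It went from 24.7, 22.7 and 26.9 CPM to 14.4, 12.2 and 14.0 CPM in Ova and from 27.6, 26.8 and 28.6 CPM to 16.9, 14.0 and 14.3 CPM in IC. The changes were close, -0.87 in Ova (SE 0.13, adjusted p of 0.000307) and -0.88 in IC (SE 0.12, adjusted p of 0.000196). Both calls held without any 1 library and without any 1 mouse. Gcfc2, which overlaps it on the opposite strand, was at 0.03 (adjusted p of 0.908) and -0.16 (adjusted p of 0.430).

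Mrps30, assigned to the large subunit despite its name (chromosome 13, 118378381 to 118387252, minus strand), was among the more abundant genes of the family. It had 69.9, 61.2 and 57.7 CPM in DMSO Ova against 45.3, 39.4 and 44.4 CPM in iBET Ova, and 61.4, 60.2 and 58.6 CPM in DMSO IC against 42.1, 38.2 and 43.9 CPM in iBET IC. It fell by the same 0.54 on the log2 scale in Ova (SE 0.10, adjusted p of 0.00190) and in IC (SE 0.10, adjusted p of 0.00145). Another gene, B430218F22Rik, annotated as protein-coding, overlaps it on the opposite strand. Without mouse B both calls of Mrps30 were lost (adjusted p of 0.0733 in Ova and 0.0635 in IC). Mrps18b (chromosome 17, 35910379 to 35916389, minus strand), one of 3 paralogs related to bacterial S18, fell from 18.9 ± 3.98 to 12.2 ± 1.90 CPM in Ova (log2 fold change -0.67 ± 0.17 SE, adjusted p of 0.00937) and from 25 ± 2.59 to 16.6 ± 0.842 CPM in IC (log2 fold change -0.59 ± 0.16 SE, adjusted p of 0.0129). The call did not hold in Ova without mouse B's DMSO Ova library (adjusted p of 0.0600), and neither Mrps18b call was kept without mouse B (0.267 in Ova and 0.0816 in IC) or without mouse C (0.0838 and 0.175). Ppp1r10, whose start is 45 bases away on the other strand, was at 0.20 (adjusted p of 0.174) and 0.08 (adjusted p of 0.582). The other paralogs were not called. Mrps18a had -0.06 in Ova (adjusted p of 0.874) and -0.50 in IC (adjusted p of 0.117), and Mrps18c -0.51 (adjusted p of 0.327) and -0.68 (adjusted p of 0.163). The DMSO values of Mrps18c, 33.4, 16.6 and 16.4 CPM in Ova and 34.1, 13.5 and 15.2 CPM in IC, were highest in mouse A.

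Mrpl3 and Mrpl39 completed the falls shared by both stimulations. Mrpl3, at the catalytic core, went from 37.2 ± 2.23 to 27.5 ± 1.91 CPM in Ova (log2 fold change -0.43 ± 0.12 SE, adjusted p of 0.0191) and from 37.5 ± 3.39 to 27.7 ± 3.73 CPM in IC (log2 fold change -0.44 ± 0.12 SE, adjusted p of 0.0150). Mrpl39, a mitochondria-specific protein, went from 28.3 ± 4.90 to 20.6 ± 1.12 CPM in Ova (log2 fold change -0.42 ± 0.15 SE, adjusted p of 0.0427) and from 31.5 ± 4.33 to 22.5 ± 1.75 CPM in IC (log2 fold change -0.48 ± 0.14 SE, adjusted p of 0.0184). Both were fragile to single libraries. The Mrpl3 call was lost in Ova without mouse B's DMSO Ova library (adjusted p of 0.0780) or mouse C's iBET Ova library, and in IC without mouse B's DMSO IC or iBET IC library (adjusted p up to 0.0705). The Mrpl39 call in Ova was lost in 9 of 12 such fits, all but those without mouse C's DMSO Ova library or mouse A's or mouse B's DMSO IC library, with adjusted p up to 0.113. In IC it was lost without mouse A's DMSO IC library or mouse B's iBET IC library (adjusted p up to 0.0759). Without mouse B, the calls of both genes were lost in both stimulations (adjusted p of 0.114 to 0.269). Without mouse C the same held (adjusted p of 0.101 to 0.155) except for Mrpl3 in IC (0.0470), and without mouse A Mrpl39 was lost in Ova (0.0959).

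Of the 10 genes called lower in IC and not called in Ova, 5 are given first, those with the largest changes. In Ova the 10 were all negative as well, from -0.52 to -0.12 on the log2 scale, with adjusted p from 0.0563 to 0.737. Mrpl50, a mitochondria-specific large subunit protein, had 37.9, 30.1 and 26.6 CPM in DMSO IC and 18.0, 16.7 and 15.2 CPM in iBET IC (log2 fold change -0.92 ± 0.19 SE, adjusted p of 0.00303). Zfp189, whose start is 83 bases from that of Mrpl50 on the other strand, fell as well, at -0.89 in Ova (adjusted p of 0.0177) and -0.72 in IC (adjusted p of 0.0355). Mrpl54 had 27.7, 13 and 15.0 CPM in DMSO IC and 12.0, 7.46 and 8.15 CPM in iBET IC (log2 fold change -1.0 ± 0.27 SE, adjusted p of 0.0126). Apba3, whose start is 26 bases from that of Mrpl54 on the other strand, was at 0.71 in Ova (adjusted p of 0.0118) and 0.32 in IC (adjusted p of 0.175). Mrps33 had 23.3, 11.7 and 13 CPM against 9.50, 8.82 and 5.51 CPM (log2 fold change -1.0 ± 0.31 SE, adjusted p of 0.0259). Mouse A gave the highest DMSO value in Mrpl50, Mrpl54 and Mrps33, and in Mrpl54 and Mrps33 it was well above the other mice. Without mouse A's DMSO IC library the Mrps33 value was -0.64 and its call was lost (adjusted p of 0.0950), as it was without the iBET IC library of either mouse B or mouse C. The call of Mrpl54 was lost without mouse B's iBET IC library (-0.86, adjusted p of 0.0564). Without mouse A's DMSO IC library its value was -0.61, and the call was kept. Mrpl53, at 6.73, 4.62 and 4.00 CPM against 3.84, 1.94 and 2.04 CPM (log2 fold change -0.92 ± 0.31 SE, adjusted p of 0.0355), lost its call without mouse A's DMSO IC library (-0.69, adjusted p of 0.134), mouse B's DMSO IC library, or the iBET IC library of either mouse B or mouse C. Mrps35, a small subunit protein, went from 13.4 ± 2.51 to 7.32 ± 1.07 CPM (log2 fold change -0.86 ± 0.20 SE, adjusted p of 0.00560), and that call held without each library. Without mouse B the calls of all 5 were lost (adjusted p of 0.0554 to 0.208), and without mouse C those of all but Mrpl50 (0.0755 to 0.114).

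The remaining falls in IC were in Mrpl11, Mrps5, Mrpl45, Mrpl18 and Mrpl24. Mrpl11, at the base of the stalk, went from 12.2, 11.4 and 9.91 CPM to 6.51, 7.65 and 5.87 CPM (log2 fold change -0.74 ± 0.16 SE, adjusted p of 0.00330), and its call held without each library and each mouse. Mrps5, a small subunit protein near the mRNA entrance, had 72.3, 34.4 and 38.4 CPM in DMSO IC and 32.4, 28.7 and 27.8 CPM in iBET IC (log2 fold change -0.71 ± 0.25 SE, adjusted p of 0.0438). Without mouse A's DMSO IC library its value was -0.33 (adjusted p of 0.155), 7 of the 12 fits that left out 1 library lost the call, and with mouse as a block the adjusted p was 0.0558. Zfp661, whose start is 128 bases from that of Mrps5 on the other strand, was at 0.55 in Ova (adjusted p of 0.309) and 0.62 in IC (adjusted p of 0.209). Mrpl45, which tethers the ribosome to the inner membrane at the exit tunnel, went from 20.8 ± 4.70 to 14.0 ± 1.40 CPM (log2 fold change -0.58 ± 0.19 SE, adjusted p of 0.0291) and lost its call without mouse A's DMSO IC library (-0.40, adjusted p of 0.103) or the iBET IC library of either mouse A or mouse B. Mrpl18 fell from 110 ± 7.87 to 76.0 ± 10.6 CPM (log2 fold change -0.54 ± 0.16 SE, adjusted p of 0.0173). It overlaps Tcp1, a subunit of a cytosolic chaperonin, on the opposite strand, at -0.32 in IC (adjusted p of 0.119). Mrpl24 fell from 20.6 ± 1.77 to 15.6 ± 1.37 CPM (log2 fold change -0.40 ± 0.12 SE, adjusted p of 0.0183). The calls of Mrpl18 and Mrpl24 were lost without mouse C's DMSO IC library or mouse B's iBET IC library (adjusted p up to 0.0793 and 0.0794). Without mouse B or mouse C the calls of Mrps5, Mrpl45, Mrpl18 and Mrpl24 were lost (adjusted p of 0.0625 to 0.176), and without mouse A those of Mrps5 (0.0556) and Mrpl45 (0.143).

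Single libraries and mice moved these counts. Of the 20 calls in IC, 11 held in each of the 12 fits without 1 library, as did 4 of the 9 in Ova. Without mouse B's iBET IC library, 7 genes were called lower in IC, and without mouse A's DMSO IC library 11, with a median over the family of -0.15 in place of -0.29. In these fits 3114 and 3394 genes were called in the whole table, in place of 3987. Without mouse B's DMSO Ova library, 3 genes of the family were called lower in Ova, with 2886 called in the whole table in place of 3593. Without mouse A, 4 rose and 16 fell in IC, and 4 rose and 6 fell in Ova. Without mouse B these numbers were 1 and 3 in IC and 2 and 1 in Ova, while the genes called in the whole table went from 3987 to 1769 in IC and from 3593 to 1310 in Ova. Without mouse C they were 4 and 6 in IC and 2 and 2 in Ova, while the whole table had 2497 and 2031 genes called.

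The structural classes are given side by side, and the difference between them was not tested. The paralogs related to bacterial S18 are split between them, with Mrps18a and Mrps18b listed as mitochondria-specific and Mrps18c as having a bacterial counterpart. In IC, 10 of 30 mitochondria-specific genes fell and 2 rose (Mrpl41 and Mrpl49), with a median of -0.42. Of the 46 with a bacterial counterpart, 6 fell and 2 rose (Mrpl10 and Mrps6), with a median of -0.18. In Ova the numbers were 4 lower and 1 higher of 30 (median -0.09) and 2 lower and 2 higher of 46 (median -0.13). By subunit, 12 of 50 large subunit genes fell in IC and 3 rose, and 4 of 26 small subunit genes fell and 1 rose.

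Genes were also grouped by functional site of the ribosome. Within the stalk, Mrpl10 rose and Mrpl11 fell in IC, and Mrpl12, which carries the factor-binding domain, was at -0.17 in Ova (adjusted p of 0.514) and -0.29 in IC (adjusted p of 0.216). Of 4 genes of the catalytic core, Mrpl3 fell in both stimulations, and the log2 fold changes of Mrpl2, Mrpl4 and Mrpl16 in IC were 0.16, 0.32 and 0.01 (adjusted p of 0.602, 0.189 and 0.988). Of 7 genes around the exit tunnel, Mrpl24 and Mrpl45 fell in IC. The values of the others in IC were 0.05 for Mrpl17, -0.89 for Mrpl22, -0.14 for Mrpl23, -0.16 for Mrpl44 and -0.17 for Mrpl47, with adjusted p of 0.0706 for Mrpl22 and at least 0.484 for the rest. Of 8 genes of the central protuberance, Mrpl18 fell in IC and the other 7 (Mrpl27, Mrpl38, Mrpl40, Mrpl46, Mrpl48, Mrpl52 and Mrpl55) ranged from -0.57 to 0.06. Of 5 genes at the decoding side of the small subunit, Mrps5 was called in IC, Mrps9 was at -0.70 (adjusted p of 0.0623), Mrps7 at -0.30 (adjusted p of 0.126), and Mrps11 and Mrps12 at -0.01 and -0.02.

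The mouse of each library is known, so the comparison was also made within mice. With mouse as a block, 3 rose and 9 fell in Ova and 4 rose and 22 fell in IC, while the genes called in the whole table went from 31.3% to 38.3% in Ova and from 34.8% to 42.1% in IC. In Ova the genes added were Mrpl18, Mrpl50 and Mrpl1, and in IC Mrpl15, Mrps9, Mrpl22, Mrpl27, Mrpl32, Mrps36 and Mrpl1, all lower with iBET, named because the block called them.

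The interaction asked whether the response to IC differed between iBET and DMSO. It called 0 of the 77 genes (1 had an unadjusted p under 0.05) and 0% of all genes tested (292 at an unadjusted p under 0.05). DESeq2 also called 0 of the 77. The 1 gene was Mrpl51, at -0.60 (SE 0.19, unadjusted p of 0.00902), named after its values were seen. It had 3 of 3 mice higher with IC in DMSO and a value of -0.08 in iBET. The largest interaction values were -0.79 for Mrpl54 (SE 0.39), -0.68 for Mrpl22 (SE 0.51) and -0.67 for Mrps33 (SE 0.44), with unadjusted p of 0.0638, 0.209 and 0.156. In each of these mouse A's DMSO IC library was the highest of all 12. Since no interaction passed the test, a fall called in IC and not in Ova is not shown to differ between them.

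Beside the family, cytosolic ribosomal proteins and nuclear-encoded subunits of the respiratory chain were tabulated in the same fit. Of 82 cytosolic ribosomal protein genes tested, 7 rose and 0 fell with iBET in Ova, and 2 rose and 0 fell in IC, with medians of 0.09 and -0.07. By unadjusted p under 0.05 there were 14 and 13 in either direction, where there were 4774 and 5094 of all 11468 genes tested. Of 78 respiratory chain genes, 1 rose and 0 fell in Ova and 6 rose and 0 fell in IC (8 and 10 at an unadjusted p under 0.05), with medians of 0.06 and -0.06. Among 77 mitochondrial ribosomal protein genes the falls were 6 and 16 and the medians -0.12 and -0.29, as given above. Of all genes tested, 14.2% fell and 17.1% rose in Ova, and 15.8% fell and 19.0% rose in IC. The lowest single values in Ova and IC, not called, were -1.68 and -2.14 in cytosolic ribosomal and -1.96 and -1.84 in respiratory chain genes. The families were not matched on transcript length. Among all genes tested under 1000 bases, 5.25% fell and 5.14% rose in Ova, and 7.31% fell and 5.94% rose in IC. Of the 25 mitochondrial ribosomal protein genes that short, 0 fell in Ova and 2 in IC. The difference between the families was not tested.

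**Figure D4:**
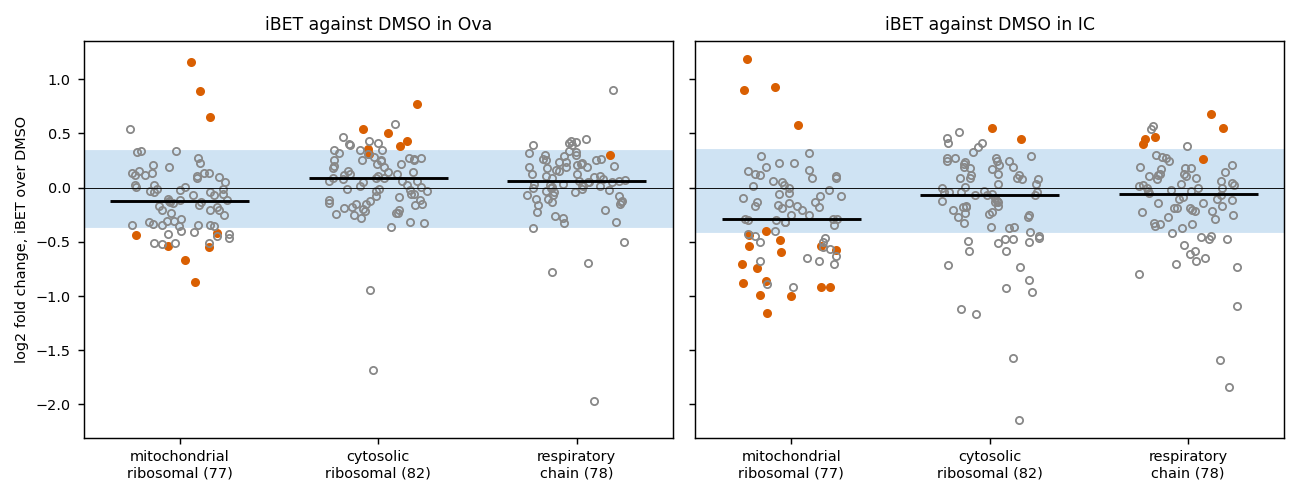
Log2 fold change of iBET over DMSO in Ova (left) and in IC (right) for mitochondrial ribosomal protein genes (77), cytosolic ribosomal protein genes (82) and nuclear respiratory chain genes (78), with filled orange points for called genes, open points for the rest, a black bar at the median and a blue band from the lower to the upper quartile of all genes tested. Of the 3 families, the called falls are all in the mitochondrial ribosomal one, at 7.79% in Ova and 20.8% in IC, against 14.2% and 15.8% of all genes tested. Its median lies at -0.12 in Ova and -0.29 in IC. The families were not matched on transcript length.

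Transcript length moved with the values. Among the 876 genes tested with a principal transcript under 1000 bases, the median change in IC was -0.15, against 0.01 for the 10507 longer ones. Of the 77 genes, 25 were under 1000 bases and had a median of -0.29, with 2 lower and 2 higher (8.0% each, against 7.31% lower and 5.94% higher of all genes that short), and the 52 longer ones had a median of -0.26, with 14 lower (26.9%) and 2 higher (3.85%), against 16.5% and 20.1% of all genes that long. After a smooth trend on length was removed, 5 rose and 5 fell in Ova and 4 rose and 16 fell in IC, and the median of the family in IC was -0.19.

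The rest of the mitochondrial translation machinery was taken from lists, whose counts stand beside 17.1% higher and 14.2% lower of all genes tested in Ova and 19.0% and 15.8% in IC. Of 6 further ribosomal subunits named outside the Mrpl and Mrps symbols, only Dap3, a GTP-binding protein of the small subunit, was called, with 15.4, 22.6 and 20.0 CPM in DMSO Ova against 43.2, 43.0 and 41.9 CPM in iBET Ova (log2 fold change 1.10 ± 0.12 SE, adjusted p of 3.79e-05) and a rise of 0.74 in IC (SE 0.12, adjusted p of 0.000449). Of 13 translation factors, 3 fell in both stimulations, the initiation factor Mtif2 (-0.80 and -0.72), the release factor Mtrf1 (-1.68 and -1.38) and the GTPase Guf1 (-0.75 and -0.59), and the activator of cytochrome oxidase synthesis Taco1 rose (0.58 and 0.57). Of 27 assembly factors, 4 rose and 4 fell in Ova and 3 rose and 5 fell in IC. The rRNA methyltransferase Nsun4 (1.81 and 1.52) and the GTPase Noa1 (1.08 and 0.47) were higher in both, Ngrn (0.61) and Rbfa (0.44) in Ova and Mpv17l2 (0.73) in IC. Fastkd2 (-1.29 and -0.78), Rpusd4 (-0.82 and -0.60) and the helicase Dhx30 (-0.45 and -0.57) were lower in both, Wbscr16 (-0.64) in Ova, and Ddx28 (-0.50) and Rnmtl1 (-0.59) in IC.

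Of 20 genes that charge mitochondrial tRNAs, 2 rose and 7 fell in Ova and 2 rose and 6 fell in IC. The asparaginyl and tryptophanyl enzymes Nars2 (1.46 and 0.96) and Wars2 (0.81 and 1.15) rose in both. Fars2 (-0.95 and -0.88), Hars2 (-0.93 and -0.70), Tars2 (-0.88 and -1.04) and Yars2 (-1.07 and -0.90) fell in both, Qrsl1 (-1.01) and Rars2 (-0.41) in Ova, and Ears2 (-1.38) and Gatc (-0.50) in IC. Lars2 was also called lower in Ova (-6.94, adjusted p of 0.0445). It had 42705 CPM in mouse A's DMSO Ova library, that with the high Rn45s share, and 74.7 and 85.1 CPM in those of mice B and C, against 100.1 to 143 CPM in iBET Ova. Of 12 genes of mitochondrial DNA expression, Tfam, which packages that DNA, fell in both (-0.69 and -0.83), and the DNA polymerase Polg rose in Ova (0.51). No symbol of the mitochondrial genome was among the rows of the count table used here. Of 10 nuclear regulators linked to these genes, Gabpa, the DNA-binding part of an ETS factor, fell from 78.6 ± 8.07 to 37.9 ± 2.88 CPM in Ova (log2 fold change -1.04 ± 0.12 SE, adjusted p of 4.01e-05) and from 72.0 ± 9.06 to 39.6 ± 1.82 CPM in IC (log2 fold change -0.86 ± 0.11 SE, adjusted p of 0.000124). Myc (-1.72 and -2.27) and the coactivator Pprc1 (-0.52 and -0.53) also fell in both, and Sp1 in Ova (-0.33). With IC, 0 genes of these lists were called in either arm at an adjusted p under 0.05. An unadjusted p under 0.05 was found for 11 in DMSO and 7 in iBET, and for 1341 and 860 of all 11468 genes tested.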

How the data were processed

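RNA of 12 BMDM libraries was sequenced after a stranded total RNA preparation (SMARTer). Per the labels and the study's methods, the authors trimmed reads with Trim Galore, aligned them to mm10 with HISAT2 and assigned them to genes with featureCounts. The annotation, the strand setting and the treatment of multimapping reads are not given in the sources used here. The authors deposited raw read counts per gene symbol and a second table of normalized signal. The deposited signal equalled the counts divided by DESeq2 size factors, with a largest relative gap of 5.11e-15, and served only in an alternative. Libraries held 7.55 M to 17.4 M counts.

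Counts were filtered with filterByExpr (minimum count 10), scaled by TMM and tested in edgeR 4.0.16 (R 4.3.3) with the robust quasi-likelihood test, with group as the design, over all 12 libraries and 11468 genes. Adjusted p-values are Benjamini-Hochberg values over all genes tested, and genes under 0.05 were called. SE was obtained from the fold change (log2) and the F statistic, as their ratio after taking the root of F. The 5 contrasts were IC against Ova in each arm, iBET against DMSO in each stimulation, and their interaction. The families, panels and lists, and the genes of this family themselves, were chosen with earlier results of these data known. Named genes were up to 8 risers and 8 fallers per contrast, taken by size among called genes, the genes of the structural panels, the 4 highest and 4 lowest by CPM per kb, the 3 largest interaction values, and the called genes of the wider lists. Others are marked where they appear.

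The labels give the mouse of each library, so letters pair libraries across groups. Deviations from group means correlated at -0.07 to 0.54 (median 0.26) over 18 same-mouse pairs and at a median of -0.13 over 36 pairs of different mice. Such deviations cancel out within a group, so positive same-mouse values force negative ones between mice. The median of -0.13 is thus not separate evidence of pairing. Mice are separate animals, and each gave 1 culture per group.

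Alternatives were DESeq2 1.42.0 and its size factors in edgeR, removal of Rn45s, 2 other filters, limma 3.58.1 on log2(signal + 1), the mouse block, 1 surrogate variable (sva 3.50.0), a loess trend on transcript length (span 0.5) with and without the block, the compared groups alone, stricter thresholds, and each library and mouse left out. Leaving out mouse A together with the block was added after seeing the data. The testing code was run on simulated counts with known changes. Symbols were matched to annotation for 23376 of 24421 directly and for 669 by synonym.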

Additional observations from a re-analysis of the deposited data

How the results depend on the processing

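Of 783 values of the 29 named calls under alternatives, 686 kept the call, 97 lost it and 0 changed direction. Outside the fits that left out a library or a mouse, 336 of 348 kept it. Calls held in all alternatives run for 6 values, namely Mrpl19 in both stimulations, Mrpl49 in Ova, and Mrpl11, Mrpl41 and Mrpl51 in IC.

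With 1 surrogate variable, 1 gene was called higher with IC in DMSO in place of 0. With the length trend removed, 5 rose with iBET in Ova in place of 3, both without and with the mouse block. With a change of at least 1.5-fold required, 2 fell in Ova in place of 6 and 10 in IC in place of 16, and at an adjusted p under 0.01 6 fell in IC. These follow from the stricter threshold, and for the other settings the cause was not tested. Without mouse A and with the replicate block, a setting added after seeing the data, 1 gene was called lower with IC in DMSO, 1 higher and 9 lower with IC in iBET, and 6 higher with iBET in Ova. The mouse block alone lost the call of Mrps5 and added those given in the text, and changed no other call in the family.

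When 1 library or 1 mouse was left out, the count with iBET in Ova ranged from 2 to 4 higher and 1 to 8 lower, and in IC from 1 to 5 higher and 3 to 20 lower. With IC in iBET it ranged from 0 to 0 higher and 0 to 3 lower, with IC in DMSO from 0 to 0 in both directions, and for the interaction from 0 to 0. Other counts of called genes of the family stayed within 1.5 times the reported ones. Over the whole table the 140 genes called with IC in DMSO became 5 with the compared groups alone, 266 in DESeq2, 315 with the mouse block, 435 with 1 surrogate variable and 347 with the block and the length trend removed, and ranged from 0 (without mouse B) to 900 (without mouse A, with the block). The 40 with IC in iBET became 99, 103, 85, 115 and 93 in these settings and ranged from 0 to 1264. With iBET the range was 1310 to 5271 in Ova and 1769 to 5137 in IC. Without mouse A's DMSO Ova library, which has the high Rn45s share, 2 genes of the family rose and 6 fell in Ova. Whether depth limited the calls was not tested.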
